A study of Bombyx mori with 2 samples.

Results

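The genes described here are *HR3*, *HR4*, *E75* and *E74*, transcription factor genes of the response to 20-hydroxyecdysone (20E), the active molting hormone of insects. They were followed as 5 gene models among the 12376 genes of the expression table. The models were chosen by identifier, with earlier results of these data known. These models were BGIBMGA009687 and BGIBMGA009688 for *HR3*, BGIBMGA007888 for *HR4*, BGIBMGA006839 for *E75* and BGIBMGA007970 for *E74*. The study compared heads of silkworm (*Bombyx mori*) larvae in the pre-molting stage of the 2nd instar between the wildtype strain C603 and the *nm2* mutant. The *nm2* larvae carry a deletion within the coding part of *BmCPG10*, which encodes a cuticular protein, and they stop at this stage without molting and die. Each strain gave 1 library, made from the pooled heads of 6 larvae, and both strains were fed mulberry leaves with no other treatment. Strain, pool and the exact time of collection therefore cannot be told apart in any value below, and there is no test between the strains.

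When 20E binds the heterodimer of the ecdysone receptor (EcR) and ultraspiracle (USP), it switches on early genes, among them *E75*, *E74* and *broad*. Early-late genes such as *HR3* and *HR4* follow while the hormone is high, and *FTZ-F1* is expressed as the hormone declines. In *Drosophila*, HR3 is an orphan nuclear receptor of the ROR type that activates *FTZ-F1*, and E75 is a heme-binding receptor related to Rev-erb that can repress HR3. HR4 is a nuclear receptor related to the vertebrate germ cell nuclear factor and carries the name GRF in the silkworm. E74 belongs to the ETS family of DNA-binding proteins.

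The gene set splits some of these genes into several models, so the qRT-PCR primers designed for the study are given to show which model each gene name was attached to. Only the sequences of the primers are used here, all in lower case and written 5′ to 3′.
*HR3* BGIBMGA009688 forward: gatctctccctgatgcacctcg
*HR3* BGIBMGA009688 reverse: tgcgtgtaatctaaaacactgtc
*HR4* BGIBMGA007888 forward: agatctcagtattaacgacgg
*HR4* BGIBMGA007888 reverse: tacatccaatcgcaactgctc
*E75* BGIBMGA006839 forward: atttctctgtcatccacgcatt
*E75* BGIBMGA006839 reverse: catgtactgctggatcatatcggt
*E74* BGIBMGA007970 forward: gccaccatcatcacaacaaa
*E74* BGIBMGA007970 reverse: ttcagcaggaactcccaca
The *HR3* pair was assigned to the long model BGIBMGA009688, and the *E74* pair to BGIBMGA007970. By the accession of their best BLAST hit, BGIBMGA006839 matched the RefSeq gene *E75* and BGIBMGA007888 the RefSeq gene *Grf* of assembly ASM3026992v2. Among further models of the same names, BGIBMGA006838 matched *E75* and BGIBMGA007968 matched *E74*. Both *HR3* models and *E74* BGIBMGA007970 matched no RefSeq gene in this way.

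The expression values were FPKM, read density scaled to the length of the gene model and to the mapped reads of the library, as the authors deposited them. Of 12912619 clean reads of 49 bases in the wildtype, 7163898 mapped to genes, and in the *nm2* library 7755547 of 12900347 did. Differences are given as log2 of *nm2* over wildtype after adding 1 FPKM, which understates the change of low genes. In place of a test, a gene was counted as lower or higher when it reached 5 FPKM in a library and its log2 difference was at least 1 in size. By that rule 15.0% of the 9158 genes at 5 FPKM or more were lower in the *nm2* mutant and 8.83% were higher. The median log2 difference of these genes was -0.30, so the scale itself sits slightly below 0. With the median ratio of the genes at 5 FPKM in both libraries set to 0, 1151 genes were higher and 929 lower, against 809 and 1371 as deposited.

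Of the 5 models, 4 were lower in the *nm2* mutant by the rule of size and 0 were higher, where 15.0% and 8.83% of all genes at 5 FPKM or more were. These 4 models stand for *HR3*, *HR4* and *E75*, and the 2 *HR3* models belong to 1 gene name and are not separate observations. The 5 models were picked with earlier results of these data known, so contrasts with all genes describe them and are no test. The median log2 difference of the 5 models, with *HR3* counted 2 times, was -5.26, beside -0.30 over all genes at 5 FPKM or more. Their levels summed to 1985 FPKM in wildtype and to 61.4 FPKM in *nm2* heads, 3.09% of the wildtype sum. This sum, too, counts *HR3* 2 times. The *HR3* models held 1694 FPKM of the wildtype sum, and without them *HR4*, *E75* and *E74* summed to 291.65 and 59.71 FPKM, with 20.5% left. The sizes were far from equal. The log2 differences ran from -9.85 for *HR3* BGIBMGA009687 to -0.34 for *E74* BGIBMGA007970.

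**Figure D1:**
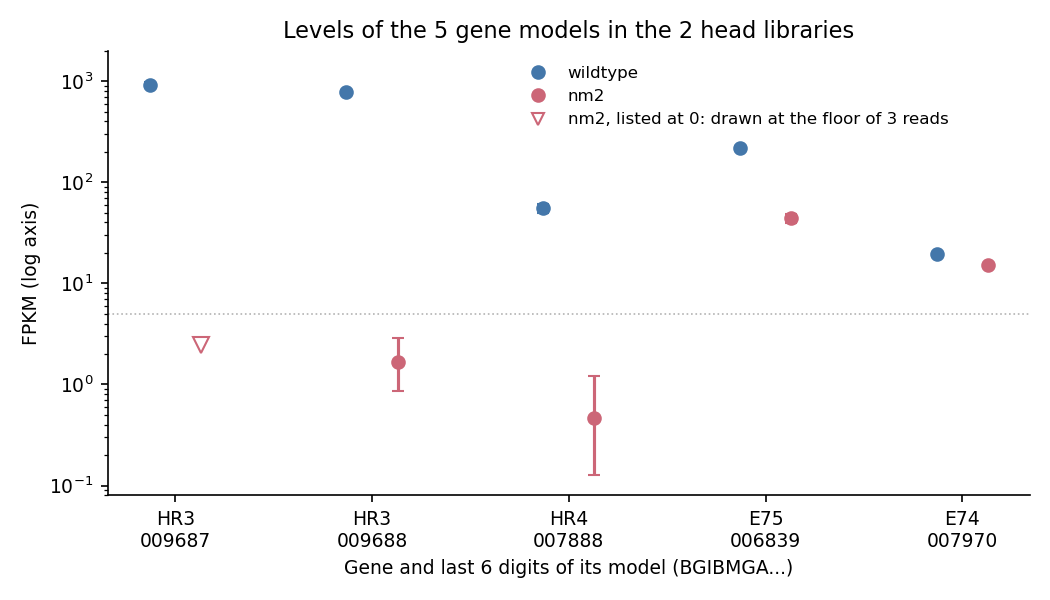
Levels of the 5 gene models in FPKM (log axis) in the wildtype (blue) and *nm2* (red) head libraries, 1 library each, with 95% Poisson intervals of the recovered reads where a coding length was listed and none for *E74*, and a dotted line at 5 FPKM. Both *HR3* models and *HR4* lie at 55.26 FPKM or more in wildtype and below 5 FPKM in *nm2*, *E75* lies at 217.03 and 44.19 FPKM, and *E74* at 19.36 and 15.05 FPKM.

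Among these genes *HR3* showed the widest separation between the libraries. The long model BGIBMGA009688, of 1809 bases of coding length, was at 772.87 FPKM in wildtype and 1.67 FPKM in *nm2* heads. By level it ranked number 257 of 12376 genes in the wildtype and number 10034 in the mutant. The log2 difference was -8.18, the number 8 of the whole table from the lowest. Reads recovered from the FPKM numbered 5166 in wildtype and 12 in *nm2* heads. The level was 463-fold lower in the *nm2* mutant, with a 95% interval of 265 to 898 from an exact conditional binomial. This interval, like all others here, covers counting error only and not the spread between pools of larvae.

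The short *HR3* model BGIBMGA009687, of 339 bases, was at 920.95 FPKM in wildtype and was listed at 0 in *nm2* heads. Its wildtype level rested on 1052 recovered reads. Against a floor of 3 reads in the *nm2* library, which is worth 2.44 FPKM for this length, it was at least 378-fold lower. In the wildtype its level was 1.19 times that of the long model, and the 95% Poisson intervals of the levels, 866 to 978 FPKM and 752 to 794 FPKM, did not overlap. At that same proportion 2.45 reads would fall on the short model in the *nm2* library, fewer than the floor of 3. RSEM, with which the authors estimated abundance, assigns reads that fit several models by expectation maximization, and the split between the *HR3* models is uncertain to the extent that they share sequence.

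Among the other genes at or above the wildtype level of BGIBMGA009688, numbering 255 without the *HR3* models, 3 were at or below its level in the *nm2* mutant. For BGIBMGA009687 there were 233 other genes at or above the wildtype level, and 0 of them were listed at 0 in the *nm2* mutant. Over the whole table, 625 of 12376 genes were listed at 0 there. The 0 of this short model allows 2.44 FPKM, so the count of 0 does not set it apart. BGIBMGA000012, for example, was at 1680.49 FPKM in wildtype and 0.68 FPKM in *nm2* heads. A gene as strongly expressed in the wildtype head as *HR3* was thus rarely at such a low level in the *nm2* head, although *HR3* was not alone in this.

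*HR4* had a lower wildtype level than *HR3* and was also close to the limit of detection in the *nm2* mutant. BGIBMGA007888, of 2124 bases, was at 55.26 FPKM in wildtype and 0.47 FPKM in *nm2* heads, a log2 difference of -5.26. The recovered reads were 435 and 4. This was 118-fold lower, with a 95% interval of 45.4 to 432. The fold of the long *HR3* model was 3.94 times that of *HR4*, with an exact conditional 95% interval of 0.926 to 13.1 that just reached 1. In the wildtype the level of *HR3* BGIBMGA009688 was 14.0 times that of *HR4*, and in the *nm2* mutant it was 3.55 times. The 95% interval of the latter ratio was 1.07 to 15.0, so *HR3* was the higher of the pair in the *nm2* library too, by a narrow margin over counting error.

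A further short model, BGIBMGA007887, of 201 bases, also carried the name GRF, from a monarch butterfly (*Danaus plexippus*) protein. It was at 56.27 FPKM in the wildtype, close to the 55.26 FPKM of BGIBMGA007888, and was listed at 0 in the *nm2* mutant. It rested on 35 recovered reads in the wildtype and was at least 12.6-fold lower against the floor of 3 reads. Both *HR4* models thus lay on the same side, as both *HR3* models did.

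*E75* was lower in the *nm2* mutant but still well detected there. BGIBMGA006839, named after isoform B, was at 217.03 FPKM in wildtype and 44.19 FPKM in *nm2* heads, and its log2 difference was -2.27. The reads recovered for its 2181 bases were 1755 and 385. The level was 4.91-fold lower, with a 95% interval of 4.40 to 5.50. The fold of *HR4* BGIBMGA007888 was 23.9 times that of *E75*, with a 95% interval of 9.16 to 88.4, so the reduction of *E75* was the smaller beyond counting error. In the *nm2* mutant 20.4% of the wildtype level was left for *E75*, against 0.216% for *HR3* BGIBMGA009688 and 0.851% for *HR4*.

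Models with an *E75* name other than isoform B were barely detected. BGIBMGA006838, named after isoform C, was listed at 0 in wildtype and at 0.91 FPKM in *nm2* heads. The *E75*-like model BGIBMGA003895 was at 1.94 FPKM and 0.95 FPKM. Neither reached 5 FPKM in a library, so no direction is given for them. Nearly all of the *E75* level in these heads therefore came from BGIBMGA006839, which held 217.03 of the 218.97 FPKM summed over the 3 models in wildtype and 44.19 of 46.05 FPKM in *nm2* heads.

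*E74* differed between its models. BGIBMGA007970 was at 19.36 FPKM in wildtype and 15.05 FPKM in *nm2* heads, and its log2 difference of -0.34 was near the median of -0.30 over all genes. With the median ratio set to 0, the difference was -0.077. No coding length was listed for this model, so neither reads nor an interval could be recovered for it. BGIBMGA007968, of 708 bases, carried the same BLAST name and was the *E74* model with a RefSeq match. It was at 13.42 FPKM in wildtype and 1.47 FPKM in *nm2* heads. Its log2 difference was -2.55, from 34 and 4 recovered reads, and it was 9.13-fold lower with a 95% interval of 3.27 to 35.5. Its fold was 1.86 times that of *E75*, with a 95% interval of 0.659 to 7.27. Summed over both models, *E74* went from 32.78 to 16.52 FPKM, and the sources used here do not say which isoforms the 2 models stand for.

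**Figure D2:**
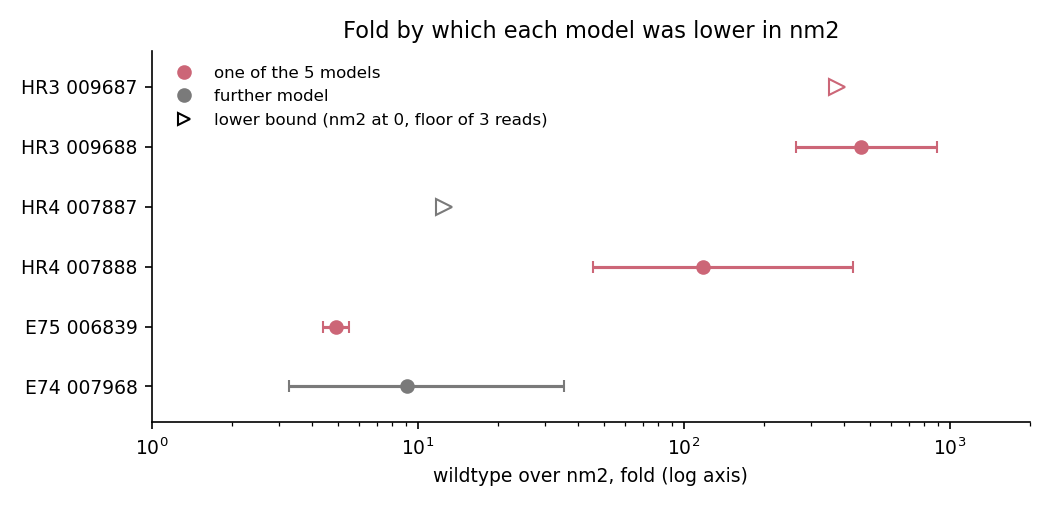
Fold by which each gene model was lower in the *nm2* library than in wildtype (log axis) with 95% exact conditional binomial intervals, for models with a listed coding length. Red marks models of the 5 and grey further models of the same genes, and open arrowheads are lower bounds for models listed at 0 in *nm2*. The interval of *E75*, 4.40 to 5.50, lies below those of *HR4*, 45.4 to 432, and of the long *HR3* model, 265 to 898.

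The order of the genes by level changed between the libraries. In the wildtype the levels in FPKM ran in the order, from the highest, *HR3* BGIBMGA009687, *HR3* BGIBMGA009688, *E75*, *HR4* and *E74*, and the Poisson intervals of the first 4 did not overlap. In the *nm2* mutant *E75* came first, followed by *E74*, *HR3* BGIBMGA009688, *HR4* and the short *HR3* model at 0. The short model could not be placed against the long *HR3* model and *HR4*, since the 2.44 FPKM that its 0 allows is above both levels. The level of *E75* was 0.281 times that of *HR3* BGIBMGA009688 in wildtype and 26.5 times that level in *nm2* heads. The level of *E74* BGIBMGA007970 was 0.350 times that of *HR4* in wildtype and 32.0 times in *nm2* heads. These ratios are within a library and do not depend on the scaling between libraries.

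**Figure D3:**
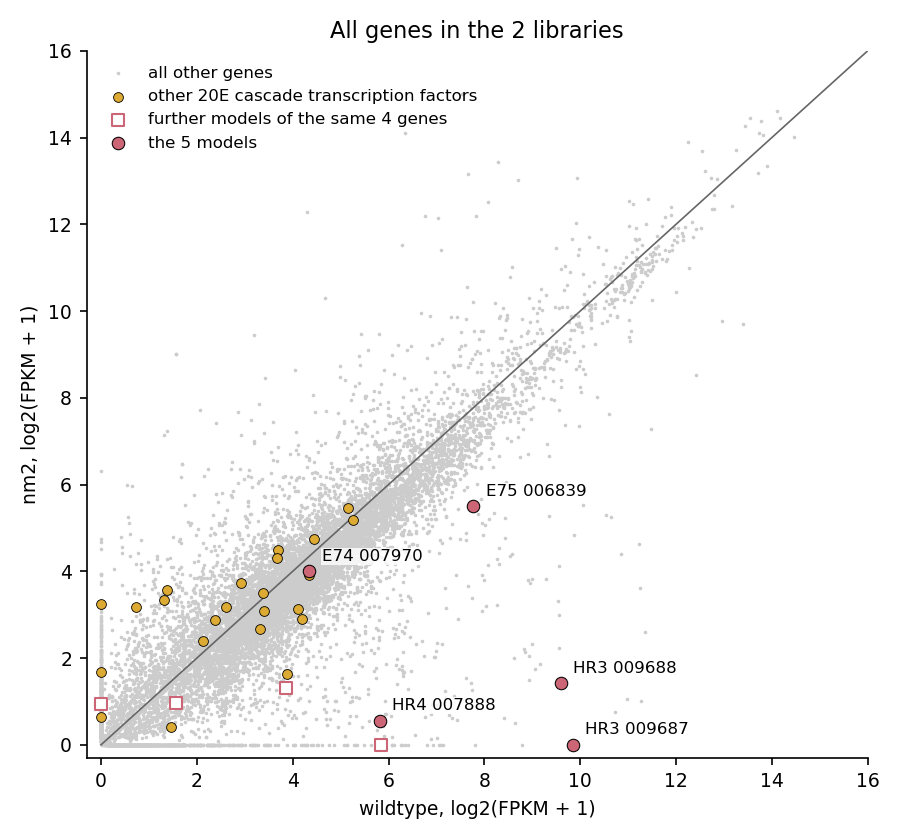
Every gene in the table as log2(FPKM + 1) in the wildtype (x axis) and in *nm2* (y axis), 1 library each, with the line of equal levels. The *HR3* models lie at the far right of the bottom edge, *HR4* and *E75* lie below the main cloud, and *E74* BGIBMGA007970 lies within it among the other 20E cascade factors.

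Other transcription factors of the 20E and juvenile hormone pathways lay on both sides. A list of 23 other gene models held the receptor genes, *FTZ-F1*, *broad*, further nuclear receptors and the juvenile hormone factors. Of these, 19 reached 5 FPKM in a library, 4 were higher in the mutant, 2 were lower and 13 passed in neither direction, where 8.83% of all genes at 5 FPKM or more were higher and 15.0% lower. Their median log2 difference was 0.31, beside -0.30 over all genes. The summed level of the list was 235.7 FPKM in wildtype and 268.73 FPKM in *nm2* heads. The 4 higher models were *FTZ-F1* BGIBMGA000716 and 3 *broad* models. Some factors are on the list with several models, so its counts are of models and not of separate genes. The list, too, was drawn up with earlier results of these data known.

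The hormone receptor itself was detected in both libraries. The 3 *EcR* models were at 9.58, 6.59 and 19.32 FPKM in wildtype and at 7.52, 12.23 and 14.04 FPKM in *nm2* heads. The *USP* models were at 11.95 and 20.91 FPKM in wildtype and at 21.55 and 25.87 FPKM in *nm2* heads. All 5 receptor models stayed within the limit of 1 on the log2 scale as deposited, with differences of both signs. With the median ratio set to 0, *EcR* BGIBMGA006766 and *USP* BGIBMGA006183 passed that limit as higher.

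*FTZ-F1* lay on the other side from *HR3*. The study gave that name to BGIBMGA000716. This model was at 1.5 FPKM in wildtype and 9.12 FPKM in *nm2* heads, a log2 difference of 2.02. It rested on 9 and 59 recovered reads and was 6.08 times higher, with a 95% interval of 3.0 to 14.0. The study gave the name *HR39* to BGIBMGA007914, a model whose BLAST name is FTZ-F1 beta. It was at 4.19 and 6.34 FPKM and did not pass the limit.

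The early gene *broad*, which specifies metamorphic fates in *Drosophila*, was represented by 6 models, all at 5 FPKM or more in a library. Of these, 3 were higher in the *nm2* mutant, where 8.83% of all genes at 5 FPKM or more were, and the values of the other 3 differed by less than the limit. BGIBMGA009908 was listed at 0 in wildtype and was at 8.46 FPKM in *nm2* heads. BGIBMGA009907 was at 1.60 and 10.96 FPKM, and BGIBMGA009909 at 0.67 and 8.08 FPKM. These were the models with consecutive identifiers, and under the same gene name they are not separate observations. The broad-like models BGIBMGA000316, BGIBMGA002948 and BGIBMGA012796 were at 16.20, 8.91 and 37.26 FPKM in wildtype and at 7.79, 5.41 and 35.17 FPKM in *nm2* heads.

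The 2 factors that were lower were a PR domain zinc finger gene and the juvenile hormone receptor gene *Met*. BGIBMGA000319, whose BLAST name is that of the relative of *Drosophila* Blimp-1, a 20E-induced repressor of *FTZ-F1*, was at 13.71 FPKM in wildtype and 2.12 FPKM in *nm2* heads. It was 6.47-fold lower, with a 95% interval of 4.28 to 10.1 from 162 and 27 recovered reads. *Met* BGIBMGA005416 was at 17.33 and 6.47 FPKM, 2.68-fold lower with an interval of 1.79 to 4.09. *Kr-h1* BGIBMGA003160, the juvenile hormone response gene, was at 34.63 and 43.10 FPKM and passed in neither direction.

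The remaining nuclear receptors on the list were at low or similar levels. *HR38* BGIBMGA002964 was at 3.34 and 4.28 FPKM, the HR96-like models at 5.10 and 11.81 FPKM in wildtype and 8.04 and 18.79 FPKM in *nm2* heads, and *seven-up* BGIBMGA001391 at 9.34 and 10.29 FPKM. The photoreceptor-specific nuclear receptor model BGIBMGA013855 was at 1.76 and 0.33 FPKM, *Met2* BGIBMGA000656 at 0 and 2.22 FPKM, and the Kenyon cell protein model BGIBMGA010814, relative of *Drosophila* *E93*, at 0 and 0.55 FPKM. All of these stayed under 5 FPKM in both libraries, as *HR38* did.

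**Figure D4:**
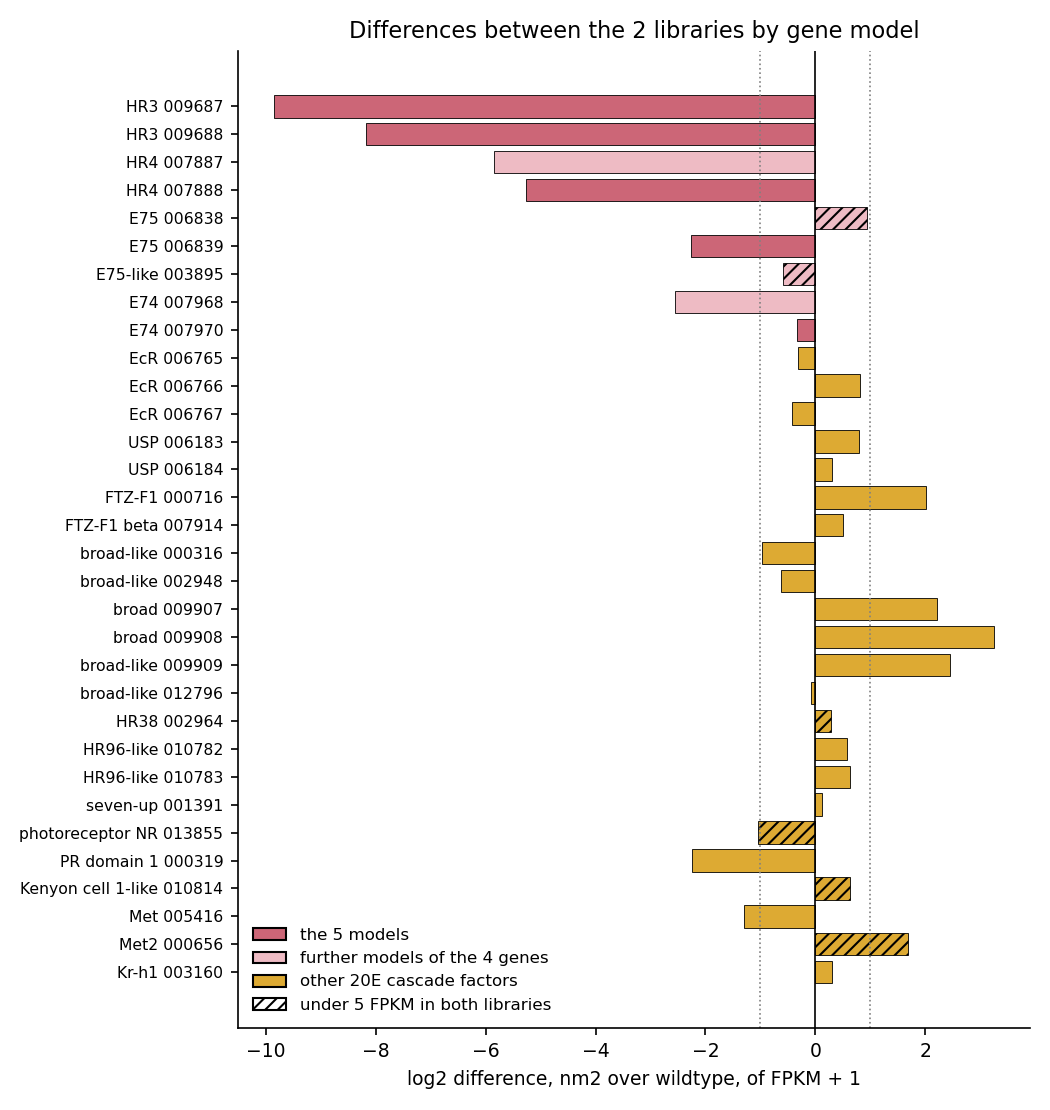
Log2 difference of *nm2* over wildtype after adding 1 FPKM, for the 5 gene models (red), further models of the same genes (pink) and the 23 other 20E cascade factors (yellow), with dotted lines at the limit of 1 and hatching for models under 5 FPKM in both libraries. The *HR3* and *HR4* bars reach -9.85 to -5.26, and the longest bar to the right is *broad* BGIBMGA009908 at 3.24, a model listed at 0 in the wildtype.

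The genes closest to each model in the plane of both libraries, by distance in log2(FPKM + 1), were listed for 3 neighbours each, leaving out models of the same gene. The likeness rests on 2 libraries only, and many genes lie close together at common levels. Nearest to *HR3* BGIBMGA009687 were *osiris 7* BGIBMGA000044 at 437.85 and 0 FPKM, and the uncharacterized genes BGIBMGA000012 and BGIBMGA008346. Nearest to BGIBMGA009688 were the neurofilament-like gene BGIBMGA007065 at 961.88 and 2.76 FPKM, the gene BGIBMGA013042 with somatomedin-B and thrombospondin domains at 571.06 and 2.61 FPKM, and *osiris 19* BGIBMGA010716 at 530.87 and 2.34 FPKM. *HR4* had BGIBMGA010949, *osiris 18* BGIBMGA000006 at 60.08 and 0.63 FPKM, and BGIBMGA007474. *E75* lay beside a beta-N-acetylglucosaminidase gene of chitin breakdown, BGIBMGA005899, at 204.50 and 44.72 FPKM. Its other neighbours were an iodotyrosine dehalogenase-like gene, BGIBMGA013646, at 233.68 and 38.78 FPKM, and an alpha-L-fucosidase-like gene, BGIBMGA006905, at 241.08 and 50.06 FPKM. *E74* BGIBMGA007970 lay beside BGIBMGA013509 at 19.53 and 15.10 FPKM, BGIBMGA010017 and BGIBMGA013897.

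The distances differed greatly between the models. The nearest gene to *HR3* BGIBMGA009687 was 1.07 log2 units away and that to BGIBMGA009688 was 0.59 away, against 0.13 for *HR4*, 0.09 for *E75* and 0.01 for *E74* BGIBMGA007970. The *HR3* models thus sat in a sparsely filled corner of the plane, and *E74* in a densely filled one.

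Marker genes were set beside the tissue label, and their levels also differed between the libraries. In both libraries the fat body, muscle and silk gland sums given below were far above that of head and nerve. The marker values therefore do not establish the head label by themselves. A share of tissue from outside the head was not tested. As above, 15.0% of all genes at 5 FPKM or more were lower and 8.83% higher. Of 34 head and nerve markers (opsins, arrestins, chemoreceptors, synaptic and ELAV genes), 5 reached 5 FPKM, 2 of them were lower and 0 higher in the *nm2* mutant. The 34 together summed to 155.23 FPKM in wildtype and 123.8 FPKM in *nm2* heads. Most of both sums came from an ELAV-like model, BGIBMGA008284, at 57.41 and 46.39 FPKM, and a beta-arrestin-like model, BGIBMGA003601, at 36.60 and 42.37 FPKM. Their names alone do not show that they are particular to head or nerve. The 2 lower models were the ELAV-like BGIBMGA005888 at 17.74 and 4.78 FPKM and the olfactory receptor BGIBMGA010882 at 6.45 and 1.41 FPKM. The opsin models were all under 5 FPKM in both libraries, among them *opsin-1* BGIBMGA007786 at 1.67 and 1.77 FPKM and *ceropsin* BGIBMGA007787 at 2.23 and 4.83 FPKM. Of the head and nerve markers, 6 in wildtype and 7 in *nm2* heads were listed at 0. Of 36 fat body markers 22 reached 5 FPKM, 13 of them were higher and 3 lower, and the 36 together summed to 13859 FPKM in wildtype and 35130 FPKM in *nm2* heads. Of the fat body markers 6 were listed at 0 in wildtype and 4 in *nm2* heads. The 5 silk gland markers summed to 4820 and 7321 FPKM, with 4 at 5 FPKM or more, 0 higher or lower, and *sericin 3* at 0.09 and 0 FPKM. The 10 muscle markers summed to 16484 and 11259 FPKM, with 9 at 5 FPKM or more, 1 lower and 0 higher. The 3 markers of the prothoracic gland, which makes ecdysone, summed to 6.81 and 7.91 FPKM, with 1 at 5 FPKM or more and 0 higher or lower. By the names of the study they were *neverland*, *dib* and *sad*. Its *spook* and *Phm* genes of the same pathway were not among them, so this set of markers was incomplete. The part of these shifts in the levels of *HR3*, *HR4*, *E75* and *E74* was not tested, and in pooled heads fewer cells of a type and less RNA per cell cannot be told apart.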

How the data were processed

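Heads of 6 wildtype and 6 *nm2* larvae were pooled into 1 library each. The authors removed adapter and low-quality reads of 49 bases, aligned the rest to the SilkDB genome and gene set, and estimated abundance with RSEM. They deposited FPKM for 12376 genes, and read counts of the mapping steps, which the authors made per library. The gene set build, and whether strand was used in counting, is not given in the sources used here. The tables of differentially expressed genes were used only for the deposited coding lengths of 1727 genes. Their columns of fold changes, P and FDR were not used.

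From the FPKM, log2 differences were computed with a pseudocount of 1 FPKM. With n = 1 a rule of size (5 FPKM in a library, log2 difference of at least 1) stood in for a test. Recovered reads were FPKM times (length - 36) times a library total found by a search for whole numbers. From a range that ended below the reads mapped to genes, the smallest total with the most whole values was taken. It was then refined to the least mean distance from whole numbers. The totals were 3770000 in the wildtype and 4062000 in *nm2*. Within 0.1 of a read, 88.9% of 126 wildtype and 97.2% of 218 *nm2* low values came out whole. The totals were 52.6% and 52.4% of the reads mapped to genes, for a reason not given in the sources used here. Totals as large as the mapped reads were not tried. Recovered reads therefore serve as a scale for counting error. Intervals are 95%, exact conditional binomial for folds and for ratios of levels, conditional odds ratio for ratios of folds, and exact Poisson for levels, with a floor of 3 reads at 0. Scripts ran in Python 3.11.15 with NumPy 2.4.6, pandas 2.3.3 and SciPy 1.17.1, and the recovery was tested on simulated data.

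The genes named were the members, further models with a member's BLAST name, all of the 20E cascade, ETS, coregulator and ecdysis lists, and the 3 nearest genes of each member. Members and lists were chosen with earlier results of these data known. Scaling to TPM, to a median ratio of 0 and to 3 housekeeping genes, other pseudocounts, limits and folds, and other length corrections were tried.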

Additional observations from a re-analysis of the deposited data

How the results depend on the processing

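In every scaling, pseudocount, low limit and fold tried, 4 of the 5 models were lower. *HR3* BGIBMGA009687, at 0 in the *nm2* mutant, had log2 differences of -13.17 and -16.49 with pseudocounts of 0.1 and 0.01 FPKM, which the pseudocount sets. A pseudocount of 0.1 FPKM gave 3 cascade factors lower, in place of 2. With the median ratio set to 0, *E75* moved to -1.99 and *E74* BGIBMGA007970 to -0.077, and 6 cascade factors were higher. That scaling takes out a shift of -0.28, and its calls were 55.3% higher against 37.1% as deposited. With a limit of 20 FPKM, which tests fewer genes, 816 of all genes were lower and 502 higher, and 0 cascade factors passed in either direction. At 4-fold the counts over all genes were 436 and 296, and 1 cascade factor was lower. Of 73 alternative values, 62 stayed within the counting interval or within 1.5 times the count, and 0 log2 differences changed sign. A band of 0.1 stood in for the interval of *E74* BGIBMGA007970. Some of the 73 could not move. The fold of a model detected in both libraries does not depend on the length correction, and scaling *nm2* leaves a model at 0 unchanged. The tally is therefore not a measure of robustness. No paired analysis was possible because each strain had 1 library, so no library could be left out either. Depth limits the *nm2* levels of *HR3* and *HR4*, which rested on 12 and 4 reads.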

Other observations

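Other ETS family genes, relatives of *E74*, were mostly at similar levels in both libraries. Of 9 models, 8 reached 5 FPKM in a library, 2 were higher in the *nm2* mutant and 0 lower, where 8.83% and 15.0% of all genes at 5 FPKM or more were. The median log2 difference was 0.09 beside -0.30 over all genes. The higher models shared the BLAST name transcription factor Ets and are not separate observations. BGIBMGA003938 was at 10.75 FPKM in wildtype and 32.72 FPKM in *nm2* heads, 3.04 times higher with a 95% counting interval of 2.08 to 4.55, and BGIBMGA003939 was at 10.67 and 25.47 FPKM. The *pointed*-like models BGIBMGA004972 and BGIBMGA004974 were at 32.65 and 50.40 FPKM in wildtype and 27.36 and 47.60 FPKM in *nm2* heads.

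Of 5 genes for ecdysis signals and an ecdysteroid-regulated protein, 3 reached 5 FPKM, 2 were lower and 0 higher in the *nm2* mutant, beside the same 15.0% and 8.83% over all genes. The ecdysteroid-regulated 16 kDa protein gene BGIBMGA008405 was at 290.99 and 83.29 FPKM, 3.49-fold lower with a 95% counting interval of 2.88 to 4.27. The receptor of ecdysis triggering hormone, BGIBMGA002244, was at 5.53 and 2.05 FPKM, and the hormone gene itself, BGIBMGA009728, was at 109.28 and 55.33 FPKM with a log2 difference of -0.97. The genes for crustacean cardioactive peptide and corazonin, and the only coregulator model found, BGIBMGA007142, stayed under 5 FPKM.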
